A study of Mus musculus with 37 samples.

Results

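Complement is a set of plasma and cell-surface proteins that tags microbes and dying cells for uptake, and macrophages make several of them locally. C1q, built from the chains encoded by C1qa, C1qb and C1qc, binds antibody complexes and apoptotic cells and starts the classical pathway. All pathways meet at C3, whose cleavage leaves a tag on the target and frees a small peptide, and factor B (Cfb) and properdin (Cfp) form and stabilise the enzyme of the alternative pathway that amplifies C3 cleavage. The receptors C3ar1 and C5ar1 sense the peptides freed from C3 and C5. The 8 genes described here were taken by symbol, as 3 C1q chains, 3 components of the C3 and alternative pathway arm and 2 receptors. All 8 symbols matched a row of the 24016 genes in the table, and all 8 were among the 10487 genes analyzed, which are those whose scaled reads reached 100 in any WT library.

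The transcriptomes were of bone marrow-derived macrophages (BMDMs) from wild-type (WT) C57BL/6J mice and from Arntl-/- mice made on a C57BL/6 background, which lack the clock protein Bmal1 in the whole animal. The study names the WT mice both as littermates and as bought C57BL/6J, so a difference of substrain or colony between the genotypes cannot be told apart from the deletion. The mice were males of 6 to 9 weeks, and the marrow cells of both genotypes were grown with M-CSF for 6 days. They were then exposed to Kdo2 lipid A (KLA), a defined part of lipopolysaccharide that activates TLR4, for 0, 6, 24 or 48 h. Each of the 8 conditions had 1 polyA RNA-seq library, and whether a library pooled animals is not given in the sources used here. Without replicate libraries no difference was tested. Intervals below are 95% intervals that cover the counting of reads only. In bulk RNA, fewer cells of a type and less RNA per cell cannot be told apart.

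The libraries held 8587560 to 27036783 reads on genes, and the WT library at 6 h was the deepest. Levels are given as scaled FPKM, the deposited fragments per kb of exon and 10000000 reads divided by a size factor for each library. Arntl itself was at 34.3, 32.3, 35.6 and 38.7 scaled FPKM in WT at 0, 6, 24 and 48 h, and at 13.9, 11.3, 18.8 and 20.2 in the libraries labelled Arntl-/-. All 8 macrophage markers were above 3 reads in every library, and their summed level was 13743 to 34726 scaled FPKM in WT and 15193 to 30866 in Arntl-/-. The 8 stromal markers summed to 485 to 1368 in WT and 364 to 782 in Arntl-/-, the 7 measured neutrophil markers to 7.58 to 56.0 and 29.0 to 140, the lymphoid markers to 21.2 to 37.0 and 28.1 to 60.2, and the dendritic markers to 27.1 to 53.4 and 25.1 to 42.8. Elane, Mpo, Ctsg, Cd3e, Cd3g, Klrb1c, Cd209a and Siglech were at 3 or fewer reads in every library. The summed level of 8 genes listed as a check of the KLA response was 1041 in WT and 1259 in Arntl-/- at 0 h, and 2087 to 2673 at the later times. Of these, Tnf was at 508 in WT and 605 in Arntl-/- at 0 h. It was below that level at 24 and 48 h in each genotype.

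The 3 C1q genes lay next to each other on the minus strand of chromosome 4, at 136436061 to 136454759 in mm9. C1qb came before C1qc and C1qa in coordinate order, with gaps of 3625 and 3002 bases. The other genes were also on minus strands in mm9, Cfb and C3 on chromosome 17 at 34993319 to 34999459 and 57343396 to 57367559, Cfp on chromosome X at 20502661 to 20508650, C3ar1 on chromosome 6 at 122797158 to 122806175 and C5ar1 on chromosome 7 at 16832092 to 16844889. The 250 bases before the RefSeq start site are shown for C1qb and C1qc, the neighbouring chains whose levels ran together, and for C3, which was higher at 24 and 48 h after KLA in each genotype. Each is written 5' to 3' on the gene's strand (minus) in GRCm38.p6, at chr4:136886201-136886450, chr4:136892915-136893164 and chr17:57228137-57228386 in the order below. Capitals mark matches on either strand to GGGNNNNNCC (the kappaB motif of NF-kB) or to GAGGAAGT (the motif of the myeloid factor PU.1).
C1qb: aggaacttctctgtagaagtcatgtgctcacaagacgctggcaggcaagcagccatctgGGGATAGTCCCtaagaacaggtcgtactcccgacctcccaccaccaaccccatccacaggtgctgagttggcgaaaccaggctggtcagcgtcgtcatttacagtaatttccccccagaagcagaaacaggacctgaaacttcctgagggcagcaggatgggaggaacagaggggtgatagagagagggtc
C1qc: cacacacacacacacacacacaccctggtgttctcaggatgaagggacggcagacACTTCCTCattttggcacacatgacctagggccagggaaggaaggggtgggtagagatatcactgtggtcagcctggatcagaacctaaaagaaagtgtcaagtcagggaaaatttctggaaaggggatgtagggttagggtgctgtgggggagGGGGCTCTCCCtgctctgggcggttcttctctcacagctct
C3: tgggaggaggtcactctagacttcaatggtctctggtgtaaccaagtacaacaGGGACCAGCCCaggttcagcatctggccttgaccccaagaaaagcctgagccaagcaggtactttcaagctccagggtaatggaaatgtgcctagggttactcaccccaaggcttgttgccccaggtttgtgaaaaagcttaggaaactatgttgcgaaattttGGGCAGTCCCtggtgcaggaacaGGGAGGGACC

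RefSeq promoters were matched for 6 of the 8 genes (C1qb, C1qc, C3, Cfp, C3ar1 and C5ar1). The kappaB letters occurred in 5 of these 6, C5ar1 being the exception, and in 45.8% of all 32851 promoter windows of the same length, so the motif is common by its letters alone. The PU.1 letters occurred in C1qc, on the opposite strand with its first base at -195 from the start site, and in 2.44% of all promoters. The E-box CACGTG, the letters bound by Bmal1 with its partner Clock, was in 6.02% of all promoters and in none of the 6 windows, and GAAANNGAAA, the interferon response element, was in 2.98% and in none of the 6. Overlapping kappaB matches were counted once per promoter. These are matches of letters in short windows, and binding was not analysed here.

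The 8 genes were among the more highly expressed in these cells, at 192 to 2167 scaled FPKM, a level per exon length. Their ranks ran from 81 to 3478 of the 10487 genes over the libraries, and 1027 to 20941 reads stood behind each value. In untreated WT cells the order was C5ar1 (1894 scaled FPKM), Cfp (1844), C1qb (1650), C1qc (1571), C3ar1 (1274), C3 (864), C1qa (817) and Cfb (399). The counting intervals of the neighbours C5ar1 and Cfp, C1qb and C1qc, and C3 and C1qa overlapped, and those of the other neighbours did not. At 48 h the WT order had become Cfp (2167), C1qc (2051), C3 (1941), C1qb (1906), C3ar1 (1613), C5ar1 (1492), C1qa (979) and Cfb (915). At 48 h the intervals of Cfp and C1qc, C3 and C1qb, and C1qa and Cfb overlapped. C5ar1 thus stood above C3ar1, C3, C1qb and C1qc at 0 h and below them at 48 h in WT.

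**Figure D1:**
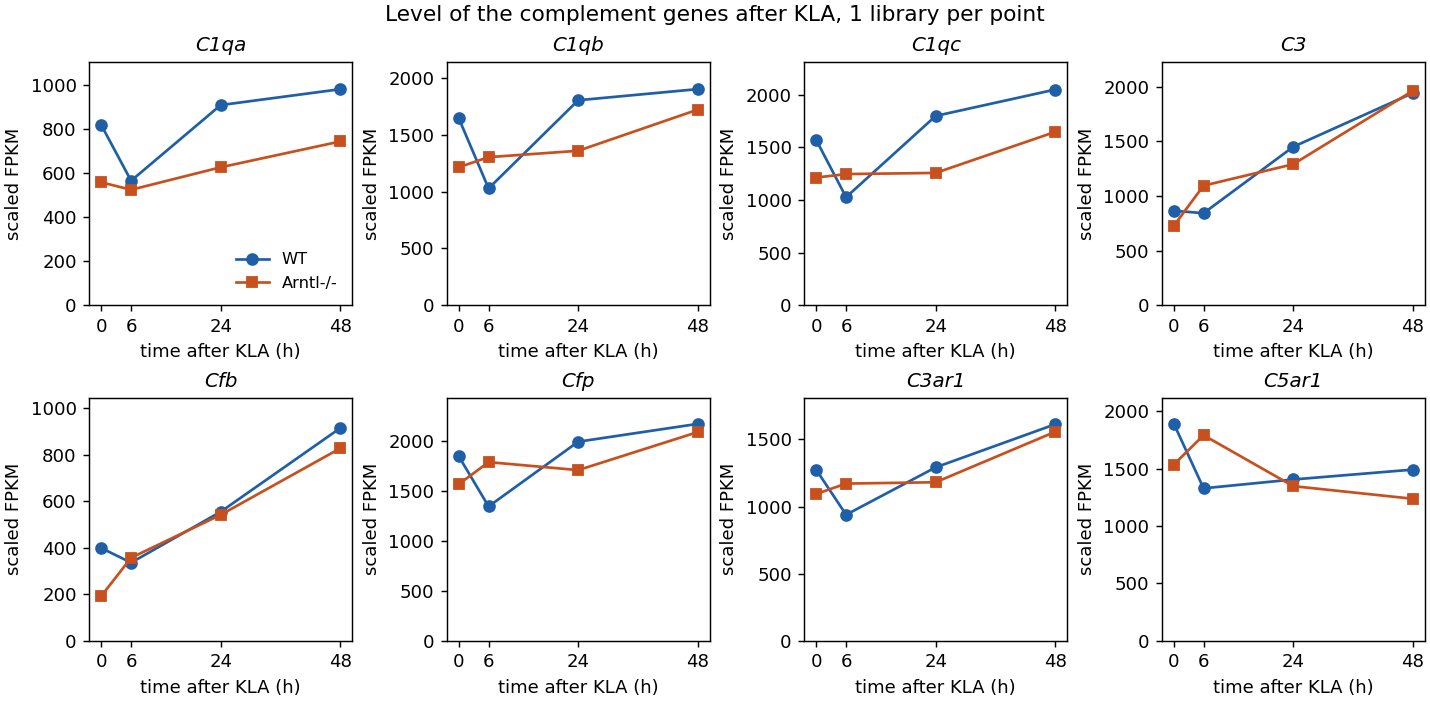
Scaled FPKM (vertical axes, from 0) of the 8 complement genes against hours after KLA (horizontal axes) in WT (blue circles) and Arntl-/- (orange squares) BMDMs, 1 library per point and no error bars. Cfb begins at 399 in WT and 192 in Arntl-/- and ends at 915 and 828, and C1qa lies lower in Arntl-/- at every time.

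These genes were densely covered. Their reads per exonic base were 0.599 to 6.56 in a library, and their mean densities lay between the 88.0th and 99.1th percentile of genes. By the study's methods at most 3 tags were counted at a position, while the densest gene of each library still reached 26.2 to 50.3 reads per base. The 1370 genes with a mean of at least 1 read per base had a median log2 difference between genotypes (Arntl-/- over WT) of -0.15, 0.30, -0.12 and -0.06 at 0, 6, 24 and 48 h, when the median of all genes lay between -0.02 and 0.01. Their median change from 0 h was -0.31, 0.09 and 0.27 in WT and 0.16, 0.13 and 0.36 in Arntl-/- at 6, 24 and 48 h. The part of read density in the members' values was not tested, so each key value is also given after a correction that subtracted from every library its smooth curve of log2 difference against read density.

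**Figure D2:**
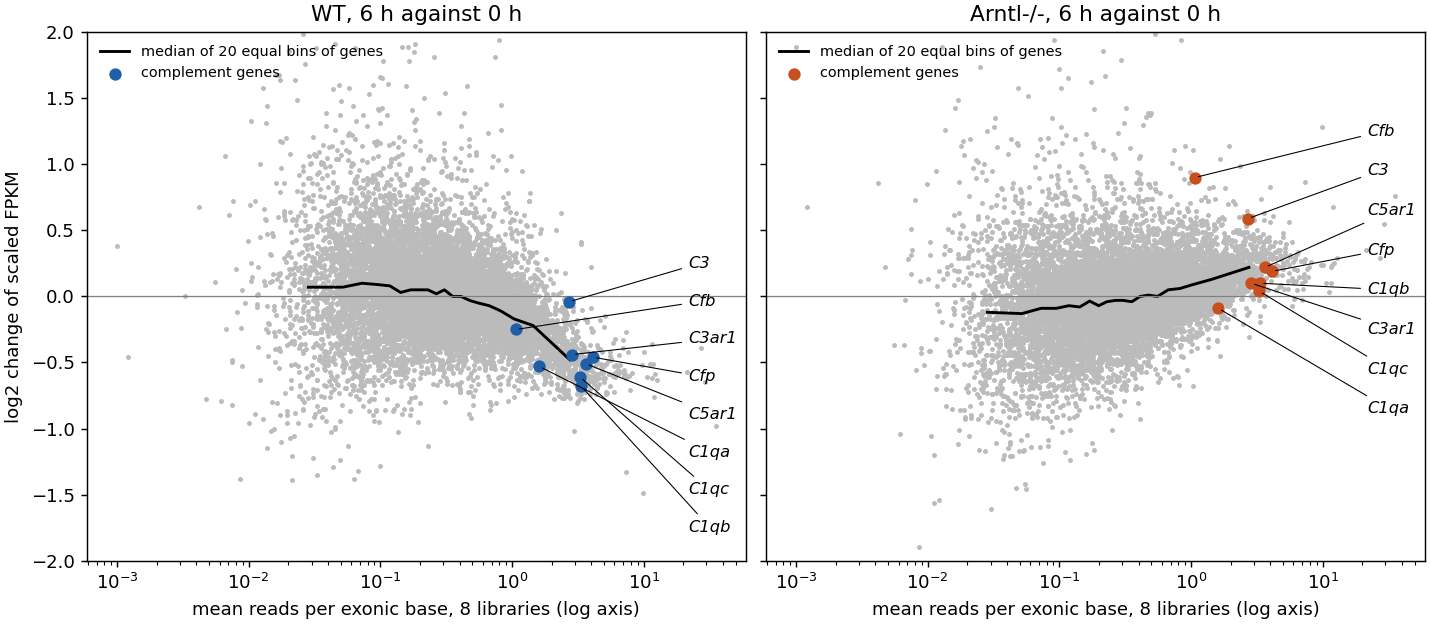
Log2 change of scaled FPKM from 0 to 6 h (vertical axes) against mean reads per exonic base over 8 libraries (horizontal log axes) in WT and Arntl-/-; grey points are genes, coloured points the 8 complement genes and black lines the medians of 20 equal bins, with 23 and 13 genes outside the drawn range. The bin medians run downward with density in WT and upward in Arntl-/-. C3 lies above them in each genotype, with a density-corrected log2 change of 0.39 in WT and 0.38 in Arntl-/-. Cfb lies above them in Arntl-/-, with a corrected change of 0.79 against -0.09 in WT.

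Between the genotypes, Cfb before KLA stood out from the other members in size. At 0 h Cfb was at 192 scaled FPKM in Arntl-/- and 399 in WT, a ratio of 0.480 (log2 -1.06, interval -1.15 to -0.97), and it kept 0.510 after the density correction. The neutrophil and precursor markers summed to 140 in Arntl-/- and 56.0 in WT at 0 h, with Elane, Mpo and Ctsg at 3 or fewer reads. The stromal markers summed to 364 and 485. Dcn and Lum of the stromal list were higher in Arntl-/-, at 39.1 against 16.8 and 4.18 against 2.73. The part of these markers in the Cfb value was not tested. Cfb was the only 1 of 8 members past 1.5-fold lower, and 0 of 8 were past 1.5-fold higher. Of all genes, 1.98% were lower and 3.19% higher by that size. The other 7 members were also lower in Arntl-/- at 0 h by log2 -0.22 (C3ar1) to -0.55 (C1qa), with an all-member median of -0.34 against -0.01 for all genes. After the correction that median was -0.08, and 6 of 8 members were below 0.

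At 6 h, 24 h and 48 h 0 of 8 members differed 1.5-fold in either direction. Of all genes, 2.03% were higher and 2.64% lower in Arntl-/- at 6 h. These shares were 3.59% and 3.11% at 24 h, then 5.74% and 5.91% at 48 h. The members' median log2 ratio was 0.33, -0.19 and -0.14 at these times. After the correction these were -0.10, 0.01 and -0.10, so the higher median in Arntl-/- at 6 h did not hold on that scale. Over the 8 genes, no gene had all its WT levels on one side of all its Arntl-/- levels.

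**Figure D3:**
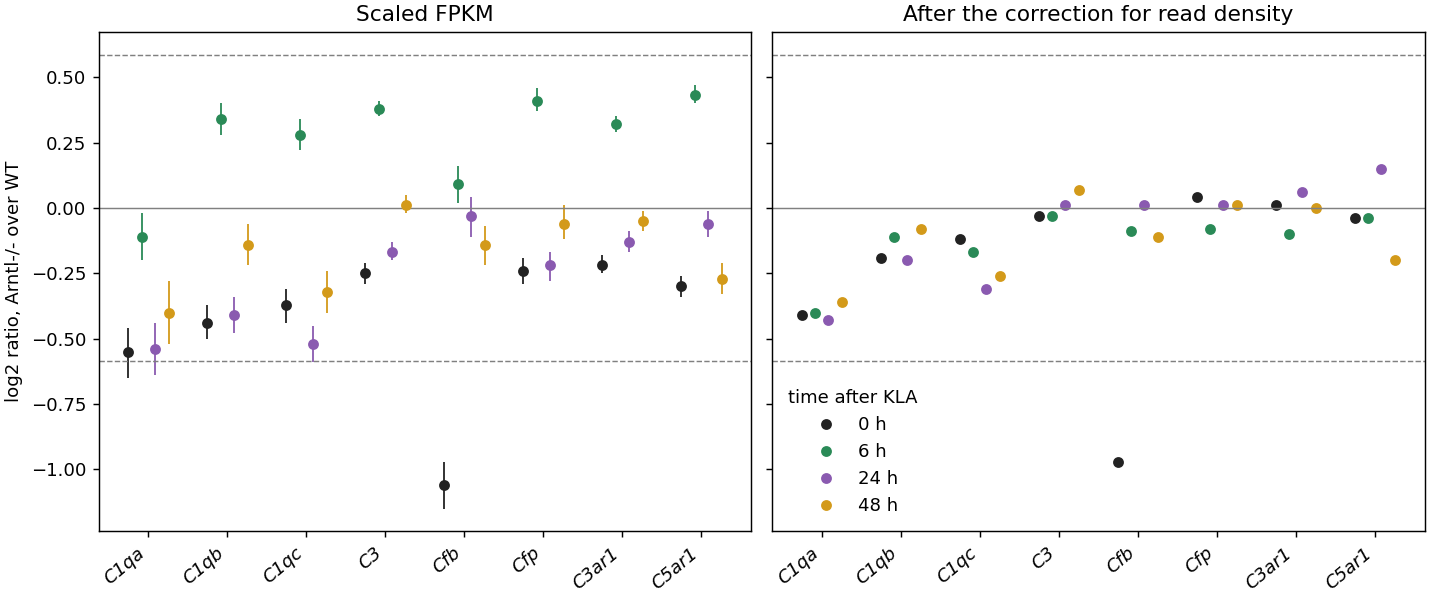
Log2 ratio of Arntl-/- over WT (vertical axis) for the 8 genes at 4 times after KLA, as scaled FPKM (left, bars are 95% counting intervals) and after the read density correction (right, no interval), with dashed lines at 1.5-fold. On the left 7 of 8 genes are above 0 at 6 h and all are below it at 0 h, and on the right C1qa stays between -0.43 and -0.36 and Cfb at 0 h is at -0.97.

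Of the C1q chains, C1qa was lower in Arntl-/- at all 4 times, and this direction was seen in all settings tried. C1qa was at 817, 564, 907 and 979 scaled FPKM in WT at 0, 6, 24 and 48 h, and at 557, 523, 625 and 742 in Arntl-/-. Each Arntl-/- value was below the WT value of its time, while the ranges of the genotypes overlapped, with the lowest WT value at 6 h. The log2 ratios were -0.55 (interval -0.65 to -0.46), -0.11 (-0.20 to -0.02), -0.54 (-0.64 to -0.44) and -0.40 (-0.52 to -0.28), and none passed 1.5-fold. Their mean was -0.40 ± 0.21 (SD, n = 4 times, which are not replicates). After the density correction the 4 ratios lay closer together, at -0.41, -0.40, -0.43 and -0.36. At the same 4 times the neutrophil markers summed higher in Arntl-/- (140, 92.3, 88.0 and 29.0) than in WT (56.0, 55.9, 44.7 and 7.58). The stromal markers summed lower (364, 400, 432 and 782 against 485, 593, 692 and 1368). Of the stromal list, Col1a1, Col1a2, Col3a1 and Sparc were lower in Arntl-/- at each time. Among those that went the other way, Dcn was higher at 0, 24 and 48 h (39.1, 37.0 and 91.3 against 16.8, 29.3 and 62.3) and Lum at 0, 6 and 48 h. The part of these markers in the C1qa values was not tested.

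C1qb and C1qc, which encode the partner chains, had higher levels than C1qa in every library and moved alike. C1qb was at 1650, 1030, 1808 and 1906 scaled FPKM in WT and at 1217, 1306, 1362 and 1725 in Arntl-/-. C1qc was at 1571, 1027, 1800 and 2051 in WT and at 1214, 1247, 1258 and 1648 in Arntl-/-. Each of these chains was lower in Arntl-/- at 0, 24 and 48 h and higher at 6 h, when the WT library was at its lowest. For C1qc the ratio at 24 h was the farthest from 0, at log2 -0.52 (interval -0.59 to -0.45). After the correction C1qb was lower at all 4 times by -0.08 to -0.20 and C1qc by -0.12 to -0.31.

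Ratios of genes within a library do not depend on its scaling, although they do depend on density where the genes differ in it. The pairs were chosen after their values were seen. C1qa over C1qb was 0.495, 0.548, 0.502 and 0.514 in the WT libraries and 0.458, 0.401, 0.459 and 0.430 in Arntl-/-, so the genotypes did not overlap. C1qa over C1qc, the other partner chain, was 0.520, 0.550, 0.504 and 0.477 in WT and 0.459, 0.420, 0.497 and 0.451 in Arntl-/-, lower in Arntl-/- at each time but with overlapping ranges. C1qc over C3ar1 was 1.23, 1.09, 1.39 and 1.27 in WT against 1.11, 1.06, 1.07 and 1.06 in Arntl-/-, which overlapped through WT at 6 h. C1qb over C1qc stayed between 0.929 and 1.08 in the 8 libraries.

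**Figure D4:**
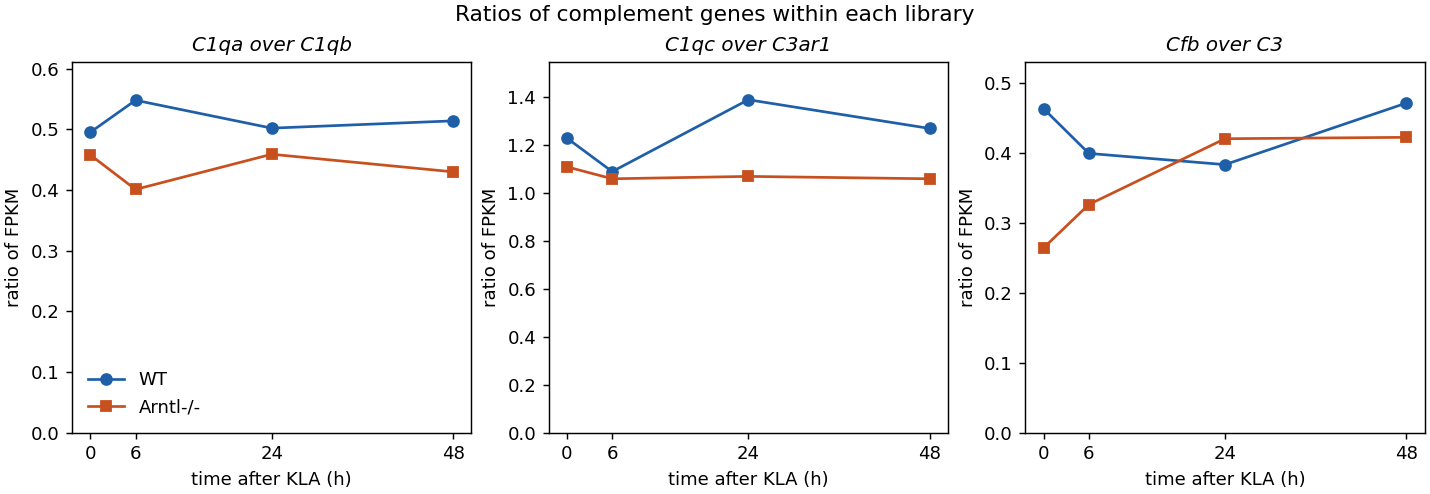
Ratios of deposited FPKM within each library (vertical axes, from 0) against hours after KLA for C1qa over C1qb, C1qc over C3ar1 and Cfb over C3, in WT (blue circles) and Arntl-/- (orange squares), 1 library per point. C1qa over C1qb is 0.495 to 0.548 in WT and 0.401 to 0.459 in Arntl-/-, and Cfb over C3 is 0.463 and 0.264 at 0 h and 0.471 and 0.422 at 48 h.

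C3 and Cfb were higher at 24 and 48 h after KLA than before it in each genotype and in every setting tried. C3, the component on which all pathways meet, was at 864, 842, 1449 and 1941 scaled FPKM in WT at 0, 6, 24 and 48 h, and at 726, 1094, 1290 and 1961 in Arntl-/-. In WT it was 0.975-fold the 0 h level at 6 h, 1.68-fold at 24 h and 2.25-fold at 48 h. In Arntl-/- the same changes were 1.51-fold, 1.78-fold and 2.70-fold. At 48 h the genotypes differed by log2 0.01, with an interval of -0.02 to 0.05. After the density correction the changes of C3 were close in the 2 genotypes, at log2 0.39, 0.63 and 0.82 in WT and 0.38, 0.67 and 0.91 in Arntl-/-.

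Cfb, the protease of the alternative pathway, had the largest change of the 8 genes in Arntl-/-. In WT at 6 h its log2 change (-0.25) was smaller than those of C1qa (-0.53), C1qb (-0.68), C1qc (-0.61), Cfp (-0.46), C3ar1 (-0.44) and C5ar1 (-0.51). Also in WT, C3 changed more than Cfb at 24 h and by a like amount at 48 h. Cfb was at 399, 336, 555 and 915 scaled FPKM in WT and at 192, 357, 542 and 828 in Arntl-/-. The genotypes were far apart at 0 h and close from 6 h onward, where the log2 ratios were 0.09 (interval 0.02 to 0.16), -0.03 (-0.11 to 0.04) and -0.14 (-0.22 to -0.07). The sign turned with the setting at 6 h (-0.21 to 0.10) and at 24 h (-0.05 to 0.10), and after the density correction these ratios were -0.09 and 0.01. Relative to 0 h, Cfb was 0.840-fold, 1.39-fold and 2.29-fold in WT and 1.86-fold, 2.83-fold and 4.32-fold in Arntl-/-. The change was thus larger in Arntl-/- by log2 1.15, 1.02 and 0.92 at the 3 times, and by 0.88, 0.99 and 0.86 after the density correction; these 3 differences share the 0 h libraries. Cfb over C3 was 0.463, 0.399, 0.383 and 0.471 in WT and 0.264, 0.326, 0.420 and 0.422 in Arntl-/-, lower in Arntl-/- at 0, 6 and 48 h and higher at 24 h. Cfb ends 2 bases from Nelfe on the opposite strand and begins 88 bases from C2 on its own, and reads were counted on both strands, so a share from Nelfe cannot be told apart; C2 had 4 to 38 reads in any library against 1630 or more for Cfb.

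The summed stromal markers were at 485, 593, 692 and 1368 scaled FPKM in WT and at 364, 400, 432 and 782 in Arntl-/- at 0, 6, 24 and 48 h. They were thus higher at 48 h in each genotype, as C3 and Cfb were, and their part in the C3 and Cfb values was not tested. The macrophage marker sum was likewise higher at 48 than at 0 h, at 34726 against 18073 in WT and 30866 against 15193 in Arntl-/-.

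Cfp, which encodes properdin, had the highest level of the C3 and alternative pathway genes in all 8 libraries. It was at 1844, 1342, 1989 and 2167 scaled FPKM in WT and at 1564, 1785, 1705 and 2085 in Arntl-/-. The ranges of the genotypes overlapped, and the WT library at 6 h held the lowest value. The log2 ratios of Arntl-/- over WT were -0.24, 0.41, -0.22 and -0.06, and 0.04, -0.08, 0.01 and 0.01 after the correction. The ratio at 6 h was above that of 93.3% of all genes before the correction.

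Of the receptors, C5ar1 was lower at 24 and 48 h than at 0 h in each genotype in every setting tried, while the direction of C3ar1 turned with the density correction. C5ar1, the receptor for the peptide of C5, was at 1894, 1329, 1406 and 1492 scaled FPKM in WT and at 1536, 1792, 1348 and 1238 in Arntl-/-. Its level at 48 h was below that at 0 h in each genotype, by 0.788-fold in WT (log2 -0.34, interval -0.39 to -0.29) and 0.806-fold in Arntl-/- (-0.31, -0.36 to -0.26). After the density correction these changes were 0.587-fold and 0.524-fold, each past 1.5-fold. The summed neutrophil and precursor markers were likewise lower at 48 than at 0 h, at 7.58 against 56.0 in WT and 29.0 against 140 in Arntl-/-. Within that list Ltf and Ngp were lower at 48 h in each genotype. Camp was higher, at 7.58 against 0 in WT and 26.3 against 12.4 in Arntl-/-. The part of these markers in the C5ar1 values was not tested. At 24 h C5ar1 was likewise below 0 h in each genotype, at 0.742-fold and 0.878-fold. At 6 h it was 0.702-fold in WT and 1.17-fold in Arntl-/-, and 0.989-fold and 0.991-fold after the correction.

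C3ar1, the receptor for the peptide of C3, was at 1274, 939, 1292 and 1613 scaled FPKM in WT and at 1094, 1171, 1181 and 1557 in Arntl-/-. Its log2 change at 48 h was 0.34 in WT and 0.51 in Arntl-/-, and -0.02 and -0.03 after the correction. The receptors thus had opposite signs at 48 h on the scaled values, and the difference between them was not tested.

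Counted over the members after KLA, the higher calls were C3 and Cfb, and the lower ones were C1qb and C1qc in WT at 6 h, which did not hold after the density correction. In WT at 6 h 2 of 8 members were lower than at 0 h by 1.5-fold, C1qb at 0.624-fold and C1qc at 0.653-fold, and 0 of 8 were higher, where 3.59% of all genes were lower and 5.36% higher. With the density correction 0 of 8 passed, where 2.71% of all genes were lower and 4.56% higher, with C1qb at 0.867-fold and C1qc at 0.905-fold. In WT at 24 h 1 of 8 was higher (C3) and 0 lower, where 8.69% of all genes were higher and 8.83% lower. In WT at 48 h 2 of 8 were higher (C3 and Cfb) and 0 lower, where 13.5% and 15.1% of all genes were.

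In Arntl-/- the higher calls were C3 and Cfb at every time, 2 of 8 with 0 lower. With the FPKM as deposited the count at 6 h was 1, and with upper-quartile scaling that at 48 h was 4, as C1qb and C3ar1 (log2 0.60 each) also passed. Of all genes, 3.09% were higher and 3.39% lower at 6 h. These shares were 7.80% and 9.57% at 24 h, then 15.2% and 17.2% at 48 h. After the density correction C5ar1 was lower past 1.5-fold at 48 h in each genotype, 1 of 8, where 14.1% of all genes in WT and 15.2% in Arntl-/- were lower on that scale. C3 at 6 h in Arntl-/- lay just past the line at 1.51-fold, and at 1.30-fold after the correction. The medians of the members' log2 changes were -0.48, 0.14 and 0.30 in WT and 0.15, 0.14 and 0.47 in Arntl-/- at 6, 24 and 48 h, and -0.05 to 0.04 in WT and -0.09 to -0.03 in Arntl-/- after the correction. The comparisons within a genotype share their 0 h library.

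The genes with the most similar profiles over the 8 libraries were sought for each member by Pearson's r of log2 scaled FPKM. For C1qb these included its neighbour C1qc (r = 0.981), and the highest was Rhoa (0.986), a small GTPase of the actin cytoskeleton. For C3 the highest was Cybb (0.993), a subunit of the phagocyte NADPH oxidase, and for Cfb H6pd (0.980). For Cfp they were Rpl11 (0.998), Rpl8 (0.996) and Ppia (0.995), the first pair of them ribosomal proteins. For C3ar1 they were Hexa, Itgb2 and Cst3 (0.994 to 0.995), for C1qc also Lgmn (0.981), for C5ar1 Cct5 and Smarce1 (each 0.976) and for C1qa Ap2a2 (0.962). Of these 24 named places, 17 were held by genes with at least 1 read per base, against 13.1% of the genes analyzed, and the part of read density in this likeness was not tested.

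After the density correction, 2 of the 24 places were held by such genes. C1qa was then most like Ets1 (r = 0.946), Arntl (0.943) and Rint1 (0.943), where C1qa and Arntl were each lower in Arntl-/- at all 4 times. C3 was most like Tmem176b (0.989), Ppp1r13l (0.988) and Irf7 (0.987), the last a regulator of interferon genes. Cfb kept Gpsm3 (0.986) and H6pd (0.980) among its nearest genes. Between members, C1qb and C1qc had r = 0.981 before and 0.872 after the correction, C3 and Cfb 0.949 and 0.896, and C5ar1 and C3 -0.456 and -0.893. Some pairs changed sign, among them Cfp and Cfb (0.774 to -0.845), Cfp and C3 (0.817 to -0.766), C3 and C1qb (0.745 to -0.290) and C3ar1 and C3 (0.847 to -0.331), while others kept theirs at a lower value, such as Cfp and C3ar1 (0.962 to 0.038). These coefficients describe 8 libraries that differed in depth and time, and all genes share those differences.

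The other complement genes were mostly low. Of 48 listed, 17 passed the filter on reads, namely 5 of the classical and lectin pathways, 4 regulators, 8 receptors or binding proteins and 0 of the alternative and terminal pathways, and 13 of the 48 had 3 or fewer reads in every library. C2, which partners C4 in the classical pathway, had 4 to 38 reads, C4b 6 to 42, and C5 (listed as Hc) 0 to 4. C1q was thus measured at high levels beside little transcript of the classical components C2 and C4b.

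Between genotypes, 2 of the 17 were higher and 0 lower by 1.5-fold in Arntl-/- at 0 h, and 1 was higher and 6 lower at 6 h. At 24 h these counts were 0 and 1. At 48 h they were 0 and 3. Of all genes, 3.19%, 2.03%, 3.59% and 5.74% were higher and 1.98%, 2.64%, 3.11% and 5.91% lower at the 4 times in order. With the density correction 1 of the 17 was higher and 4 lower at 6 h, where 1.72% and 1.48% of all genes were. The 6 lower at 6 h, chosen after their values were seen, were C1ra (log2 -0.70), C1s1 (-0.61), Fcna (-0.80), Cd55 (-0.60), Serping1 (-0.99) and Itgax (-0.94). After the correction C1s1 (-0.43) and Cd55 (-0.56) were within 1.5-fold. Over the libraries C1s1 rested on 10 to 77 reads, Serping1 on 28 to 215, Fcna on 32 to 249 and Itgax on 70 to 347. The summed stromal markers were at 400 in Arntl-/- and 593 in WT at 6 h, and their part in these values was not tested. C1ra and C1s1 encode the proteases that C1q carries, Serping1 their inhibitor, Fcna a lectin, Cd55 a surface inhibitor of C3 cleavage and Itgax a chain of a receptor for cleaved C3. No gene of the 17 differed 1.5-fold in the same direction at 3 or more times.

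From 0 to 24 h in WT the highest signed changes of the 17 were C1s1 (log2 2.12, from 1.63 to 7.42 scaled FPKM), Itgax (1.08), C1rl (0.58) and C1ra (0.47). The lowest were Fcna (-0.84), C1qbp (-0.46), Cd93 (-0.37) and Cd55 (-0.37). C1s1 rested on 10 to 77 reads, so its fold carries a wide counting error. Its highest WT level was 19.2 scaled FPKM at 48 h. The filter kept a gene by its highest WT library, so a gene this low at 0 h was analyzed only if it was higher later. The rise of C1s1 in WT was thus partly set by the filter, as was its part in the WT counts that follow. After KLA in WT, 4, 2 and 5 of the 17 were higher and 1, 1 and 0 lower than at 0 h at 6, 24 and 48 h. With the density correction 3, 3 and 4 were higher and 1, 1 and 1 lower. In Arntl-/- 0, 3 and 6 were higher and 2, 2 and 1 lower, and 0, 3 and 5 and 2, 1 and 2 with the correction. Over all genes the shares higher were 5.36%, 8.69% and 13.5% in WT and 3.09%, 7.80% and 15.2% in Arntl-/-. The shares lower were 3.59%, 8.83% and 15.1%, and 3.39%, 9.57% and 17.2%. With the correction the shares higher were 4.56%, 9.17% and 13.0% in WT and 3.61%, 7.99% and 14.0% in Arntl-/-, and the shares lower 2.71%, 8.24% and 14.1% and 2.31%, 9.01% and 15.2%.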

How the data were processed

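PolyA RNA-seq of 8 BMDM libraries was analyzed; the ChIP-seq samples were not analysed here. The authors aligned reads to mm9 with STAR and counted tags on RefSeq exons with HOMER (each strand, at most 3 tags per position, 1 transcript per gene), and the FPKM they deposited are per 10000000 reads and per kb of exon. Of the value columns, 4 of other time points were not used, and 1 fragment line was left out. FPKM multiplied by length gave whole reads for 100% of values of up to 20 reads (tolerance 0.1 read), used for depth and for 95% Clopper-Pearson intervals of ratios and exact Poisson intervals of levels.

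Size factors from medians of ratios (0.918 to 1.13) scaled the libraries. Log2 ratios used a pseudocount of 0.1 and were counted against the study's 1.5-fold line; no test was made, since each condition had 1 library and times were not taken as replicates. The density correction was a lowess curve (fraction 0.3). Named were the 8 members, Arntl, the marker lists as sums, other complement genes differing 1.5-fold in 1 direction at 3 or more times or with the 4 highest and 4 lowest signed WT changes from 0 to 24 h, and the 3 genes most like each member. Members and lists were chosen with earlier results of these data known. The alternatives were unscaled FPKM, upper-quartile scaling, the correction, pseudocounts of 1 and 0.01, no filter, a mean of 20 scaled reads and a 2-fold line. Size factors from dense genes were added after seeing the data. Steps were tested on simulated data. Promoters are from RefSeq (GRCm38.p6); positions are otherwise mm9. Tools were scipy 1.17.1, statsmodels 0.14.6, numpy 2.4.6, matplotlib 3.10.9 and pandas 2.3.3 in Python 3.11.15.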

Additional observations from a re-analysis of the deposited data

Results flagged for a closer look

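For 5 of the 8 genes the change from 0 to 6 h had opposite signs in the genotypes, lower in WT and higher in Arntl-/-, with counting intervals that excluded 0; 24 pairs of gene and time were looked at, with 1 library per condition, and the differences were not tested. The change in Arntl-/- minus that in WT was log2 1.15 for Cfb, 0.78 for C1qb, 0.73 for C5ar1, 0.65 for Cfp and 0.54 for C3ar1. After the correction for read density the differences were 0.88, 0.08, 0.00, -0.12 and -0.11, and of the 5 genes only Cfb was still lower in WT (-0.09) and higher in Arntl-/- (0.79), although its WT change ran from -0.28 to 0.05 over all settings tried, while for Cfp the signs were the reverse (0.07 and -0.06). The WT library at 6 h was the deepest, and the part of its depth was not tested.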

How the results depend on the processing

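Genotypes were matched by time only, times were not taken as replicates, and no test was made. Pseudocounts of 1 and 0.01 moved none of the 80 member values across 0 or the 1.5-fold line. Of these 80 values, 6 took the other sign with the FPKM as deposited, 37 with the correction for read density, 15 with size factors from dense genes and 0 with upper-quartile scaling, and 41 kept their sign in all settings. The 2 members lower in WT at 6 h became 0 with the FPKM as deposited, with the density correction, with dense-gene size factors (added after seeing the data) and at 2-fold. The 2 higher in Arntl-/- at 6 h became 1, 1, 1 and 0 under the same settings. At 2-fold the 1 higher in WT at 24 h became 0 and the 2 in Arntl-/- at 24 h became 1, and with upper-quartile scaling the 2 in Arntl-/- at 48 h became 4. With the density correction and with dense-gene size factors the counts at 48 h went from 2 higher and 0 lower to 2 higher and 1 lower in each genotype. The other member totals stayed within 1.5 times. Among all genes, 490 to 3408 passed 1.5-fold in a comparison, from 4120 to 7668 with no filter, from 965 to 4237 with the mean filter, from 838 to 4354 with dense-gene size factors and from 67 to 1422 at 2-fold. With the FPKM as deposited the share of calls that were higher went from 61.7 to 77.1% (Arntl-/- against WT, 0 h), 43.5 to 12.0% (6 h), 59.9 to 90.2% and 47.1 to 32.6% (WT, 6 and 48 h), and 47.7 to 34.2% and 46.9 to 29.5% (Arntl-/-, 6 and 48 h). With the density correction it went to 53.7% (Arntl-/- against WT, 6 h) and 61.0% (Arntl-/-, 6 h). With dense-gene size factors the calls went from 213 higher and 277 lower to 31 and 1288 (Arntl-/- against WT, 6 h), from 335 and 208 to 743 and 95 (0 h) and from 562 and 376 to 1810 and 47 (WT, 6 h), and the share went to 88.7, 2.35 and 79.3% between genotypes at 0, 6 and 24 h (from 53.6% at 24 h), to 97.5, 36.5 and 23.5% in WT (from 49.6% at 24 h) and to 17.5, 30.0 and 15.6% in Arntl-/- (from 44.9% at 24 h). The median of all genes lay at -0.18 to 0.13 over the comparisons with the FPKM as deposited and at -0.38 to 0.28 with dense-gene size factors. The cause of these shifts was not tested.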
